A study of Arabidopsis thaliana with 18 samples.

Results

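The comparison set Arabidopsis thaliana seedlings carrying a T-DNA insertion in LBD37 against wild type, both grown with full nitrogen. Its members were the 3 arrays labelled as the insertion mutant in full nutrition and the 3 arrays labelled as wild type in full nutrition, 6 of the 18 arrays of the series. On each array 22746 probe sets were compared after 64 control probe sets had been left out. LBD37 belongs to the LATERAL ORGAN BOUNDARIES DOMAIN (LBD) family of plant transcription factors. With its close relatives LBD38 and LBD39 it is induced by nitrate and known as a repressor of anthocyanin synthesis and of genes that serve nitrate uptake and assimilation. Plants that lack nitrogen accumulate anthocyanin, so loss of such a repressor is of interest in seedlings that have nitrate.

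Both groups were whole Col-0 seedlings, 9 days old, kept for all 9 days in full nutrition with 4 mM KNO3. The mutant is named lbd37-1, so a single insertion allele stood for the loss of the gene. An lbd38 insertion mutant was grown in the same medium, and an LBD37 overexpresser and its wild type were grown for 7 days in full nutrition and then for 2 days with no nitrogen added, with 3 arrays in each group. The promoter behind the overexpresser and the number of its lines were not given in the sources used here, and the labels describe the culture both as liquid throughout and as agar followed by liquid wells. The replicates are called biological without saying what was repeated, so the p-values measure the spread between these samples.

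No probe set annotated to LBD37, LBD38 or LBD39 was found, so the targeted gene could not be used as a check of the genotype. The measured signal was the deposited log2 value, in which a difference of 1 is a 2-fold change. Array medians lay between 6.98 and 7.03 in the 6 arrays, and in 6 tests of array quality the smallest exact two-sided permutation p was 0.3, where 3 against 3 arrays can reach 0.1. Among the root markers PYK10, a beta-glucosidase of roots, was bright in wild type at a mean of 12.60, and among the shoot markers YAB3, a regulator of leaf polarity, stood at 8.41, so RNA of both organs was present. None of the 4 root and 5 shoot markers measured passed the test between lbd37 and wild type, and their median changes were -0.13 and 0.03. The meristem gene CLV3 was near the dim end of the arrays at 5.49, where the lower quartile of signal lay between 5.21 and 5.34.

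Few probe sets passed the test between lbd37 and wild type. Of 22746 probe sets, 43 passed an adjusted p of 0.05 (0.189% of those tested), 31 of them higher in lbd37 (0.136%) and 12 lower (0.0528%). The test was limma's moderated test with Benjamini-Hochberg adjustment. The rises ran from 0.36 to 1.57 on the log2 scale and the falls from -0.98 to -0.44. Changes of at least 2-fold were found at 8 probe sets, all of them higher. At an unadjusted p under 0.05 there were 1688 probe sets (7.42%). Exactly 1 gene was listed for 25 of the 43, several for 2 and none for 16. The 3 lbd37 arrays lay entirely above or below the 3 wild-type arrays at all 43, as they did at 13.9% of all probe sets. With 1 of the 6 arrays left out the count ran from 11 (without mutant replicate 1) to 50 (without wild-type replicate 3). Those fits kept 11 and 28 of the 43. In whole seedlings, fewer cells of a type and less RNA per cell cannot be told apart. The largest rise was at a probe set with no listed gene. By size, the rises with 1 listed gene were led by a peptide precursor, a wound-responsive protein, a zinc-finger repressor, a major latex protein and a calcium-binding protein. The fall of largest size was at AT3G12900, an enzyme that makes an iron-mobilising coumarin.

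**Figure D1:**
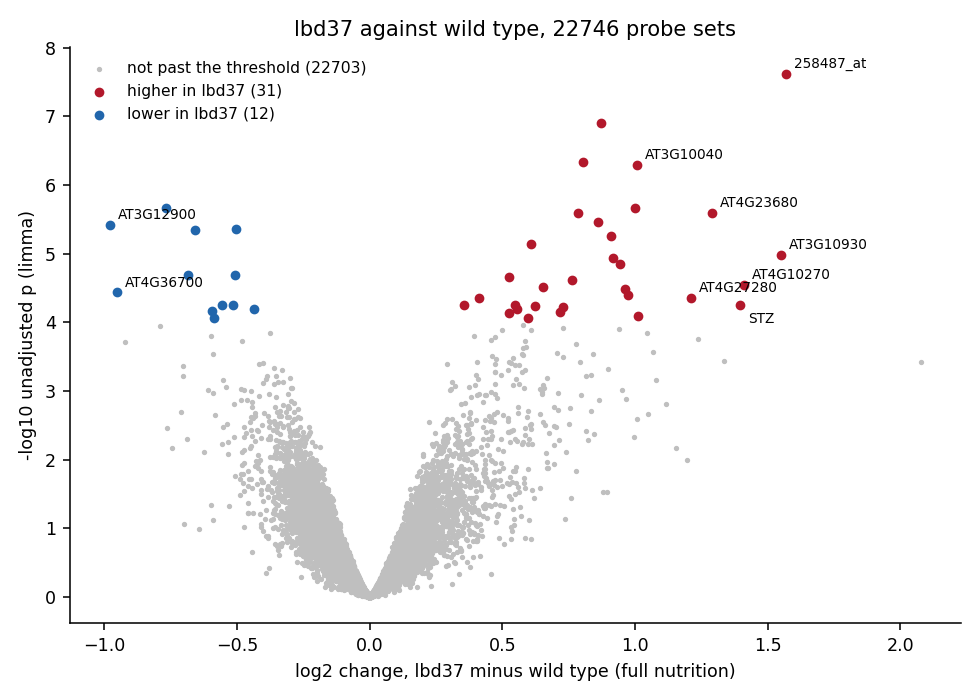
Log2 change of each of the 22746 probe sets in lbd37 minus wild type (x axis) against -log10 of limma's unadjusted p (y axis), with the 31 higher and 12 lower probe sets past an adjusted p of 0.05 coloured and a few of them named. The rises reach 1.57 and the falls stop at -0.98, while one grey point at 2.08, AT4G33720, did not pass the test.

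Among the 12 largest rises with 1 listed gene, the leading gene was AT3G10930, which encodes the IDA-like peptide precursor IDL7. Its signal was 5.86, 5.47 and 5.50 in wild type and 6.76, 7.86 and 6.87 in lbd37. All mutant arrays lay above all wild-type arrays, and replicate 2 of the mutant stood about 1 log2 unit above the other mutant arrays. The change was 1.55 ± 0.26 (SE), or 2.93-fold, with a limma adjusted p of 0.0157 and a range of 0.0282 to 0.0776 with 1 array left out. Its wild-type values lay near the lower quartile of their arrays, so that fold is rough.

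STZ, the zinc-finger repressor also called ZAT10 that responds to salt, cold and drought, read 7.65, 7.46 and 7.26 in wild type and 8.65, 9.34 and 8.57 in lbd37. The groups were apart by almost 1 log2 unit at their closest. STZ rose by 1.40 ± 0.27 (SE), 2.63-fold, with a limma adjusted p of 0.0381. With any 1 of the 6 arrays left out its adjusted p ran from 0.0735 to 0.20, so the call rested on having 3 arrays in each group.

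AT4G27280, an EF-hand calcium-binding protein, read 7.98, 8.37 and 8.47 in wild type and 9.33, 9.69 and 9.44 in lbd37. The mutant arrays were close to each other and all above wild type. The rise was 1.21 ± 0.23 (SE), 2.31-fold, at a limma adjusted p of 0.036. The adjusted p ran from 0.0472 to 0.181 with 1 array left out, passing in 1 of 6 such fits.

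AT4G10270, a member of the wound-responsive protein family that is induced by low oxygen, gave 7.04, 7.91 and 7.65 in wild type and 8.78, 9.29 and 8.75 in lbd37. The wild-type arrays spread more widely than the mutant arrays, and the groups did not overlap. It rose by 1.41 ± 0.25 (SE), 2.66-fold, with a limma adjusted p of 0.029 and a range of 0.0445 to 0.156 with 1 array left out.

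AT3G10040 encodes HRA1, a trihelix factor that damps the response to low oxygen. Its signal was 5.45, 5.74 and 5.73 in wild type and 6.45, 7.04 and 6.45 in lbd37. Replicate 2 of the mutant was again the highest array, and the lowest mutant array was above the highest of wild type. HRA1 rose by 1.01 ± 0.13 (SE), 2.01-fold, with a limma adjusted p of 0.00288, and the call held with each of the 6 arrays left out in turn. Wild type lay near the lower quartile of its arrays here too, so that fold is rough.

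At AT4G23680, of the lipid-binding major latex protein family, mutant replicate 2 was the lowest of the mutant arrays. Wild type read 7.29, 7.21 and 7.13, and lbd37 read 8.82, 7.93 and 8.75. The rise of 1.29 ± 0.19 (SE), 2.45-fold, had a limma adjusted p of 0.00725. AT4G19430, to which no role is assigned here, went from 5.19, 4.87 and 4.83 to 5.81, 6.21 and 5.88, a rise of 1.00 ± 0.15 (SE) at a limma adjusted p of 0.00725. Its wild-type values lay below the lower quartile of their arrays, so that fold is rough.

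The other 5 of the 12 rose by 0.76 to 1.01. They were AT3G48650, listed by RefSeq as a pseudogene, at 1.01, AT1G32920 at 0.97, AT5G51390 at 0.81, the heavy-metal-associated domain protein AT5G52750 at 0.79 and the 2-oxoglutarate-dependent dioxygenase AT2G36690 at 0.76. The lowest limma adjusted p among them was that of AT5G51390, 0.00288. AT5G51390 was dim, at 4.41, 4.21 and 4.47 in wild type against 5.01, 5.43 and 5.08 in lbd37, so its fold is rough. Below the 12, and named after their values were seen, 7 more genes rose. Among them were AT3G56880, a VQ-motif protein, at 0.73, AT1G66180, an aspartyl protease, at 0.56, and ARL (ARGOS-LIKE), which promotes cell expansion, at 0.53.

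The same mutant array was often the most extreme. Of the 31 rises, replicate 2 of lbd37 was the highest mutant array at 24, replicate 1 at 6 and replicate 3 at 1. Without that array 18 probe sets passed, of which 13 were among the 43. Without replicate 1 or 3 the counts were 11 and 15, all of them among the 43. Of the 18 genes named as the largest rises and falls, 5, 7 and 7 passed without mutant replicates 1, 2 and 3, and 10, 9 and 12 without wild-type replicates 1, 2 and 3. The median log2 signal of the mutant arrays was 6.98, 7.00 and 6.98, and whether the handling of replicate 2 differed was not tested.

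**Figure D2:**
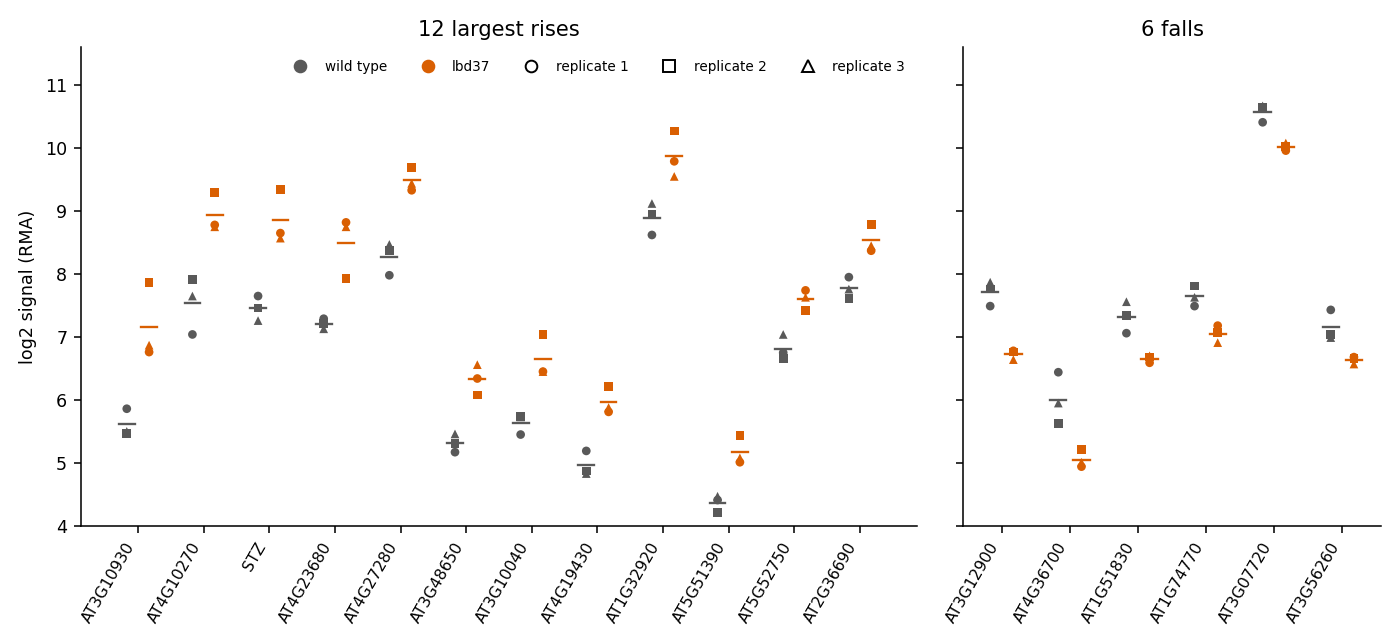
Log2 signal of every array for the 12 genes with the largest rise (left) and the 6 genes that fell (right), wild type in grey and lbd37 in orange, with marker shape for the replicate and a bar for the mean of 3 arrays. No wild-type point overlaps a mutant point of the same gene, and the orange square, lbd37 replicate 2, is the highest at most of the rises.

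Only 6 probe sets with 1 listed gene fell. AT3G12900 encodes scopoletin 8-hydroxylase, which makes the iron-mobilising coumarin fraxetin. It read 7.49, 7.76 and 7.87 in wild type and 6.78, 6.76 and 6.64 in lbd37. The mutant arrays lay close together, below every wild-type array. The fall was -0.98 ± 0.15 (SE), 1.97-fold, with a limma adjusted p of 0.00854.

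AT1G74770 encodes BTSL1, an E3 ligase that limits the iron deficiency response. Its signal was 7.49, 7.81 and 7.63 in wild type and 7.18, 7.07 and 6.91 in lbd37. The groups did not overlap. The fall was -0.59 ± 0.11 (SE) with a limma adjusted p of 0.0405, and with any 1 array left out the adjusted p ran from 0.0602 to 0.266. AT3G07720, a kelch-repeat protein known to rise in iron-deficient roots, was bright and fell by 0.56 at an adjusted p of 0.0381 (limma), from 10.41, 10.65 and 10.67 to 9.96, 10.02 and 10.08, and the adjusted p ran from 0.0422 to 0.235 with 1 array left out.

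AT1G51830, a leucine-rich repeat receptor kinase, went from 7.06, 7.34 and 7.56 in wild type to 6.59, 6.68 and 6.70 in lbd37, a change of -0.66 ± 0.10 (SE) at a limma adjusted p of 0.00854. The mutant arrays were tighter than the wild-type arrays. The cupin AT4G36700 fell, at -0.95, and its mutant arrays at 4.94, 5.21 and 5.01 were below the lower quartile of the array, so that fold is rough. AT3G56260 fell, at -0.51.

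A probe set without a listed gene gave the strongest signal among those that passed. Probe set 258487_at, for which no gene is listed, read 7.75, 8.19 and 8.30 in wild type and 9.49, 10.03 and 9.43 in lbd37. The gap between the groups exceeded 1 log2 unit. The rise of 1.57 ± 0.17 (SE), 2.97-fold, had the lowest limma adjusted p of all, 0.00054, and held with each array left out. Next among the rises without a single listed gene came 254098_at at 0.96 and 265670_s_at at 0.94. The largest falls of that kind were 248596_at at -0.77, 266162_at at -0.69 and 251942_at at -0.59.

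The largest estimate of all did not pass. AT4G33720, of the family of PR-1-like secreted proteins, read 7.03, 6.04 and 5.62 in wild type and 8.88, 7.34 and 8.70 in lbd37, a difference of 2.08 ± 0.47 (SE) at a limma adjusted p of 0.111. The wild-type arrays alone spanned over 1 log2 unit. It is named, with CML38, AT5G52760 and AT1G66090 at 1.34, 1.24 and 1.04, after the values were seen, and none of these passed the test.

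Genes of rapid stress and calcium signalling, a list of transcripts that respond within minutes to touch, wounding and elicitors, stood highest as a group. Of 76 genes listed, 14 had a probe set listing them alone. STZ and AT3G10930 rose, as 0.136% of all probe sets did, and none fell. Estimates were above 0 at 12 of the 14, where 41.5% of all probe sets were. The median was 0.55 against -0.02 over all probe sets. Of the 14, 9 were higher at an unadjusted p under 0.05, where 3.15% of all probe sets were. Members that did not pass the test included CML38, a calmodulin-like protein, at 1.34, CML40 (AT3G01830) at 0.86, WRKY53, a senescence and defence regulator, at 0.71 and WRKY22 at 0.66. The median over the list was 0.39, 0.83 and 0.49 above the wild-type mean in mutant replicates 1, 2 and 3, so replicate 2 was highest here too. Without that array the median was 0.44 and neither gene passed the test, and without wild-type replicate 2 neither passed either, at a median of 0.53. Without any other of the 6 arrays 1 of them passed. The list was drawn up with its shift in lbd37 already known, so the count is not independent evidence.

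The genes of the response to low oxygen were measured at 21 of 41 listed. HRA1 and AT4G10270 rose, as 0.136% of all probe sets did, and none fell. The median was 0.16, with 15 of the 21 above 0 where 41.5% of all probe sets were. This list too was drawn up with earlier results of these data known, so the counts are not independent evidence. PDC2, a pyruvate decarboxylase of fermentation, was at -0.11 and did not pass. CML38, which also belongs here, and AT4G24110 at 0.61 and AT1G33055 at 0.52 did not pass. Without wild-type replicate 1 the median was 0.05 and 1 member passed, and 1 member passed without each of the 3 mutant arrays. In lbd38, against the same wild-type arrays, the median of this list was 0.23 and 3 members passed, where 1.19% of all probe sets did.

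The genes of iron homeostasis were measured at 6 of 42 listed, and all 6 estimates were below 0, as were 58.5% of all probe sets. AT3G12900 and AT1G74770 fell, as 0.0528% of all probe sets did, none rose, and the median was -0.43. The iron list was also drawn up with earlier results of these data known, so its counts are not independent evidence. The other 4 did not pass. F6'H1 (AT3G13610), which opens the coumarin pathway by making the precursor of scopoletin, read 9.93, 10.25 and 10.32 in wild type and 9.70, 9.61 and 9.77 in lbd37, a difference of -0.47 ± 0.12 (SE) at a limma adjusted p of 0.169. The iron-signalling peptide IMA1 (AT1G47400) was at -0.38, and the basic helix-loop-helix regulators BHLH101 and PYE were at -0.34 and -0.18. Without mutant replicate 3 neither gene passed, at a median of -0.41, and without any other of the 6 arrays 1 passed. The median ran from -0.57 to -0.37 over the 6 leave-outs. In lbd38, against the same wild-type arrays, the median of this list was -0.59 and 2 members passed, where 1.19% of all probe sets did.

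**Figure D3:**
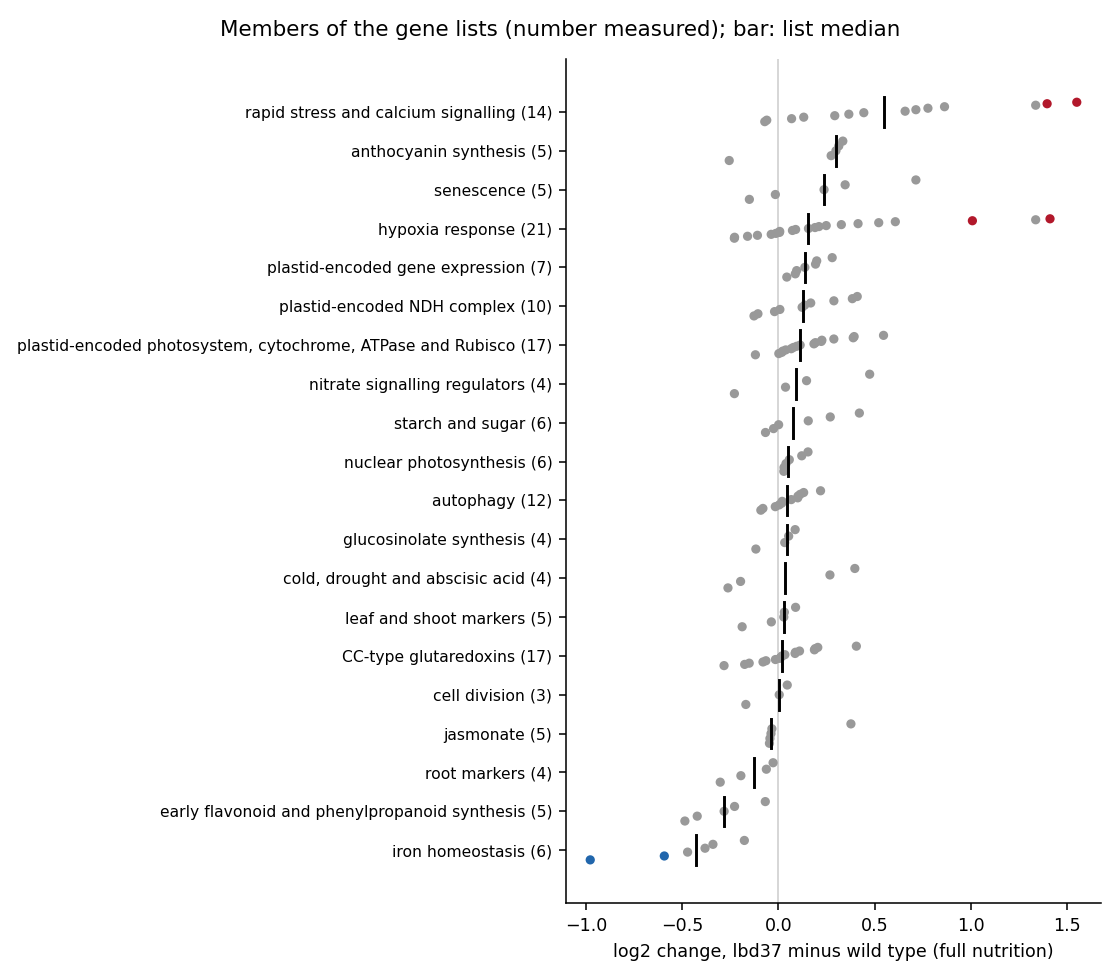
Log2 change, lbd37 minus wild type, of each measured member (points) of the gene lists with 3 or more measured members, red and blue for members past an adjusted p of 0.05 and a black bar for the list median. Coloured points appear in the stress, hypoxia and iron lists alone, whose medians are 0.55, 0.16 and -0.43.

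The anthocyanin genes, which LBD37 is known to repress, did not pass the test in lbd37. Of 12 late synthesis and decoration genes listed, 5 were measured, none passed, 4 were above 0 and the median was 0.30. The median was 0.13, 0.57 and 0.14 above the wild-type mean in mutant replicates 1, 2 and 3, and it was 0.15 without mutant replicate 2 and 0.13 without wild-type replicate 3. DFR, dihydroflavonol reductase, the entry to the anthocyanin branch, read 10.30, 10.05 and 9.55 in wild type and 10.09, 10.73 and 9.97 in lbd37. The groups overlapped, and the difference of 0.30 had a 95% interval of -0.18 to 0.78 with a limma adjusted p of 0.856. The glycosyltransferase UF3GT was at 0.31, AT4G14090, which adds the anthocyanin 5-O-glucose, at 0.33, the acyltransferase AT5MAT at 0.27 and the flavonoid 3-O-glucosyltransferase UGT78D2 at -0.26. In the LBD37 overexpresser without nitrogen, against its own wild type, all 5 were lower and passed the test, as 11.3% of all probe sets were, at a median of -1.24.

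The list written for early flavonoid and phenylpropanoid synthesis lay on the other side of 0. Its measured members include flavonol decoration and lignin genes. All 5 measured of 14 were below 0, none passed, and the median was -0.28. At an unadjusted limma p under 0.05, 4 of the 5 were lower, where 7.42% of all probe sets changed in either direction. CHIL, a non-catalytic enhancer of flavonoid synthesis, was at -0.28, the flavonol rhamnosyltransferases AT1G06000 and UGT78D1 were at -0.49 and -0.42, and HCT, an enzyme of lignin precursor synthesis, was at -0.23. The lowest limma adjusted p in this list was 0.202. No regulator of the flavonoid pathway had a probe set listing it alone.

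Nitrate genes were thinly covered and none passed. NRT2.5, a high-affinity nitrate transporter of nitrogen-starved plants, read 6.19, 5.98 and 6.15 in wild type and 6.09, 6.18 and 6.54 in lbd37. The groups overlapped, and the difference of 0.17 had a 95% interval of -0.27 to 0.60 (limma adjusted p of 0.926). In seedlings without nitrogen the same gene read 9.99, 9.92 and 10.10 in wild type and 6.95, 6.77 and 7.59 in the LBD37 overexpresser, a change of -2.90 ± 0.21 (SE) at a limma adjusted p of 4.11e-08. Among the regulators of nitrate signalling, HHO3 (AT1G25550), a repressor of nitrate transporter genes, was at 0.47 with a limma adjusted p of 0.179, HHO2 (AT1G68670) at 0.15, NRG2 (AT3G60320) at 0.04 and HHO1 (AT3G25790) at -0.23. No gene of nitrate assimilation was measured by a probe set of its own.

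The chloroplast-encoded transcripts leaned one way without passing. Of 69 measured, none passed and the median was 0.19. Estimates were above 0 at 65, where 41.5% of all probe sets were. The median was 0.13, 0.27 and 0.13 above the wild-type mean in mutant replicates 1, 2 and 3. Replicate 2 was highest here too, and wild-type replicate 3 was itself at 0.07. The photosystem assembly factor gene ycf3 was nearest to the threshold, at 7.47, 7.99 and 7.81 in wild type and 8.31, 8.49 and 8.20 in lbd37, a difference of 0.58 ± 0.13 (SE) with a limma adjusted p of 0.0866. The nuclear photosynthesis genes, 6 in number, had a median of 0.05. None passed among 17 CC-type glutaredoxins (median 0.02), 12 autophagy genes (0.04), 5 senescence genes (0.24), 5 jasmonate genes (-0.04), 6 starch and sugar genes (0.08), 4 glucosinolate genes (0.04) and 3 cell division genes (0.00). The median half-width of an unadjusted 95% interval was 0.21 over all probe sets, and the smallest changes that passed after adjustment were 0.36 and -0.44, so smaller changes could be missed with 3 arrays a group.

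Of 27 LBD genes listed 2 were measured, and neither passed. These were LBD16 and LBD29, regulators of lateral root formation, which were at -0.14 and -0.10. Of 8 probe sets for loci between AT5G67320 and AT5G67520, around LBD37, none passed, the differences ran from -0.15 to 0.34 and the lowest limma adjusted p was 0.607.

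The lbd37 and lbd38 mutants were compared directly to see where the insertions differ. A gene that did not pass this test is not thereby shown to share a change. Between them 591 probe sets passed (2.6% of 22746), 341 higher in lbd37 (1.5%) and 250 lower (1.1%), and 71 differed by at least 2-fold. With 1 array of either mutant left out the count ran from 292 to 388. Of the 43 lbd37 probe sets, 23 also passed in this comparison, which uses the same lbd37 arrays. Against the shared wild-type arrays 270 probe sets passed in lbd38 (1.19%).

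At some of the genes changed in lbd37, the lbd38 arrays overlapped wild type. HRA1 was at 5.70, 5.87 and 5.60 in lbd38, overlapping wild type and below every lbd37 array, and the 2 mutants differed by 0.92 ± 0.13 (SE) at a limma adjusted p of 0.000638. AT4G23680 was at 6.93, 7.26 and 7.30 in lbd38, again overlapping wild type, and differed by 1.34 ± 0.19 (SE) at a limma adjusted p of 0.000621. AT4G19430, AT5G51390 and AT1G51830 differed by 0.88, 0.82 and -0.76, and AT1G74770 by -0.52, all past the threshold.

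STZ, AT4G27280 and AT3G10930 did not pass between the mutants. STZ was at 8.76, 8.49 and 9.04 in lbd38, overlapping lbd37, and the difference of 0.09 had a 95% interval of -0.47 to 0.65 (limma adjusted p of 0.96). AT4G27280 was at 9.58, 9.33 and 9.55 in lbd38, with an interval of -0.47 to 0.48 around a difference of 0.00. AT3G10930 was at 6.61, 6.38 and 6.90 in lbd38, and the difference of 0.53 had an interval of -0.01 to 1.07 (limma adjusted p of 0.406). The median of the stress list was 0.44 in lbd38 minus wild type and 0.55 in lbd37 minus wild type, from the same wild-type arrays. Of the 14 members of that list 1 passed between the mutants, WRKY22, higher in lbd37 by 0.93 ± 0.17 (SE) at a limma adjusted p of 0.00373. AT3G12900 did not pass between the mutants, at 6.63, 7.06 and 7.35 in lbd38, with a difference of -0.28 and an interval of -0.60 to 0.03.

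AT2G36690 moved in opposite directions in the mutants. It read 7.95, 7.61 and 7.76 in wild type, 8.37, 8.79 and 8.45 in lbd37 and 6.93, 7.10 and 6.91 in lbd38. The 3 groups did not overlap, lbd38 was at -0.79 against wild type (limma adjusted p of 0.005), and lbd37 was above lbd38 by 1.56 ± 0.14 (SE) at a limma adjusted p of 3.46e-06. The other large differences with lbd37 higher were AT4G22470, a lipid-transfer-like protein, at 2.05, AT2G17740, a DC1-domain protein, at 1.63, AT1G23390, a kelch F-box protein that targets chalcone synthase for breakdown, at 1.27, and the glycine-rich protein AT2G05540 at 1.24. None of these 4 passed against wild type in lbd37.

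The largest differences with lbd37 lower were led by a gene high in lbd38. PDF1.2, a defensin of the jasmonate and ethylene response, read 4.25, 4.34 and 4.53 in lbd37, like the 4.61, 4.30 and 4.33 of wild type, and 6.66, 6.24 and 8.13 in lbd38. Its values in wild type and lbd37 were below the lower quartile of the arrays, so the difference of -2.64 ± 0.42 (SE, limma adjusted p of 0.0016) is rough. QQS, an orphan gene that affects starch content, read 6.21, 6.04 and 6.06 in lbd37 and 7.77, 7.88 and 7.77 in lbd38, a difference of -1.70 ± 0.11 (SE) at a limma adjusted p of 2.55e-07. The others were the thionin AT1G66100 at -1.78, AT5G54530 at -1.64, the cell wall acetylation gene TBL26 at -1.51 and the malate channel gene AT1G68600 at -1.23. None of these others passed in lbd37 against wild type.

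**Figure D4:**
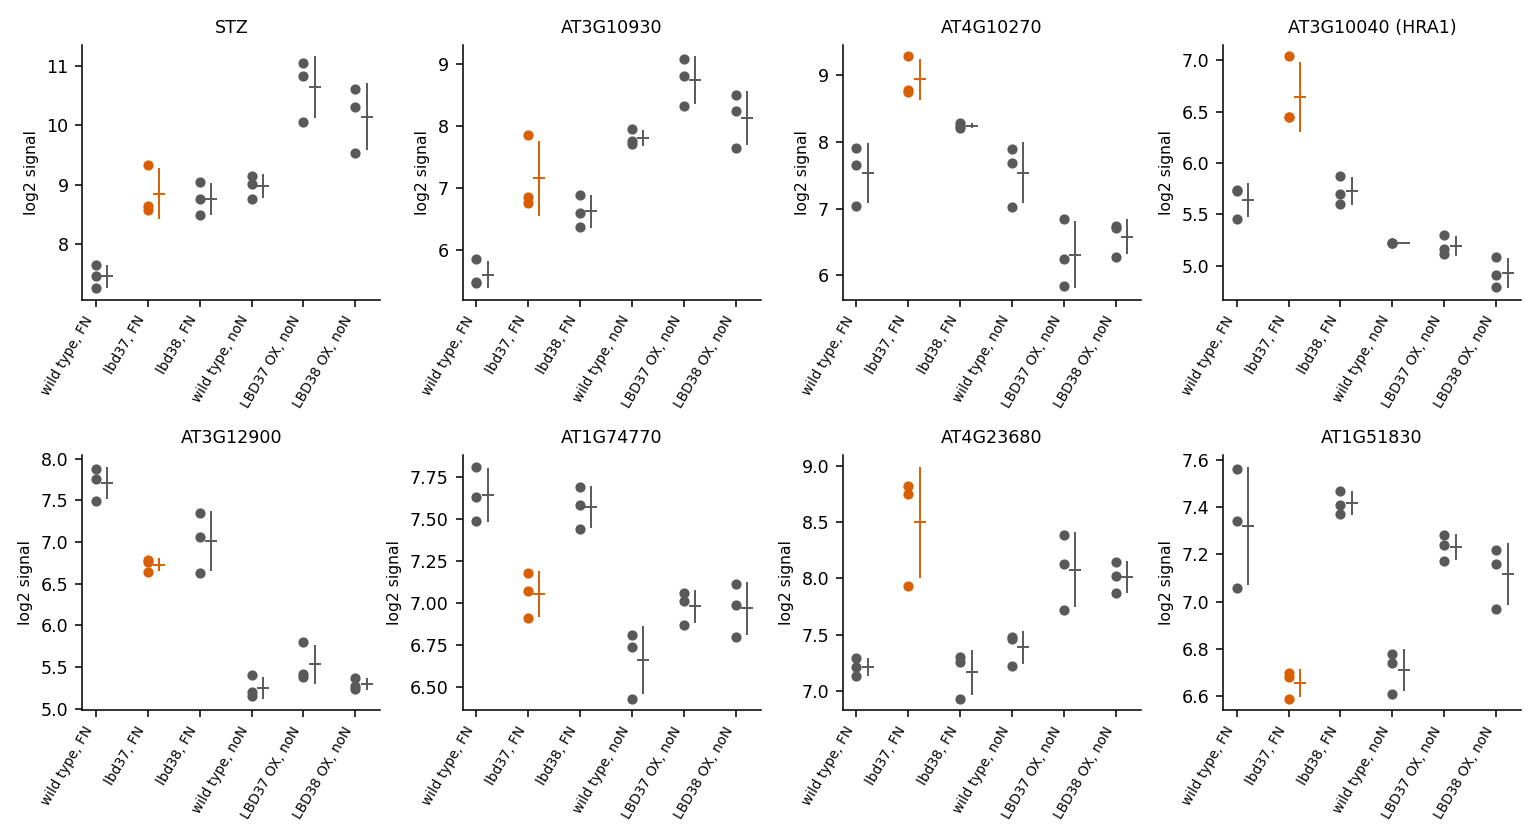
Log2 signal of 8 named genes in all 6 groups (FN, full nutrition; noN, no nitrogen added; OX, overexpresser), points for the 3 arrays and a bar with SD for the mean, lbd37 in orange; the y axis differs between panels and does not start at 0. STZ lies above the same 3 wild-type arrays in both mutants, whereas HRA1 and AT4G23680 are raised in lbd37 and overlap wild type in lbd38.

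The effect of losing LBD37 with nitrogen was set beside that of gaining it without nitrogen, 2 comparisons with no array in common. The overexpresser differed from its wild type at 4203 probe sets (18.5%), 1639 higher (7.21%) and 2564 lower (11.3%). Of the 43 lbd37 probe sets 24 passed in both comparisons, which was 55.8% of the lbd37 set and 0.571% of the overexpresser set. The effects were opposite at 15 of the 24 and alike at 9. Among those with 1 listed gene, 6 were opposite and 8 alike, counts too small to tell from the split over the 24. Over all 22746 probe sets 54.1% had opposite signs and the correlation of the changes across probe sets was -0.13, a description of genes that are not independent. Loss and gain were measured under different nitrogen supply, so genotype and nutrition cannot be told apart in the difference between them. Replicate 3 of the overexpresser stood apart in its signal distribution, with an interquartile range of 2.89 where the other 17 arrays had 3.06 to 3.28.

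Opposite effects included the wound-responsive gene AT4G10270, which read 7.69, 7.90 and 7.03 in wild type without nitrogen and 6.84, 6.24 and 5.84 in the overexpresser. The overexpresser lay below its wild type on every array, by 1.23 ± 0.25 (SE), 2.35-fold, where lbd37 had been higher by 1.41. The difference of the effects was 2.65 ± 0.36 (SE) at a limma adjusted p of 0.00012. Probe set 258487_at went from 8.42, 8.50 and 8.28 to 7.01, 6.69 and 6.82, 2.94-fold lower, where lbd37 had been 2.97-fold higher. AT1G70270, of no role assigned here, fell in the overexpresser by 1.89 and rose in lbd37 by 0.65, and AT4G19430 by 0.65 and 1.00. AT5G51390 and ARL also rose in lbd37 and fell in the overexpresser, and the receptor kinase AT1G51830 fell in lbd37 and rose in the overexpresser by 0.52.

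STZ was among the genes with like effects. It read 9.02, 8.76 and 9.15 in wild type without nitrogen and 11.05, 10.83 and 10.06 in the overexpresser, a rise of 1.68 ± 0.27 (SE) at a limma adjusted p of 0.000246. The difference between its effects of loss and gain was -0.28, with a 95% interval of -1.07 to 0.51. AT3G10930, AT4G27280, AT3G56880 and AT4G23680 rose in the overexpresser by 0.93, 0.88, 0.73 and 0.69, and AT3G07720 fell by 0.77. HRA1 did not pass in the overexpresser, at -0.03, and its effects of loss and gain differed by 1.04 ± 0.19 (SE) at a limma adjusted p of 0.0015. In the difference of effects 2222 probe sets passed (9.77%), among them 31 of the 43, a count favoured by the choice of the 43, since the difference contains the lbd37 effect by which they were chosen.

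**Figure D5:**
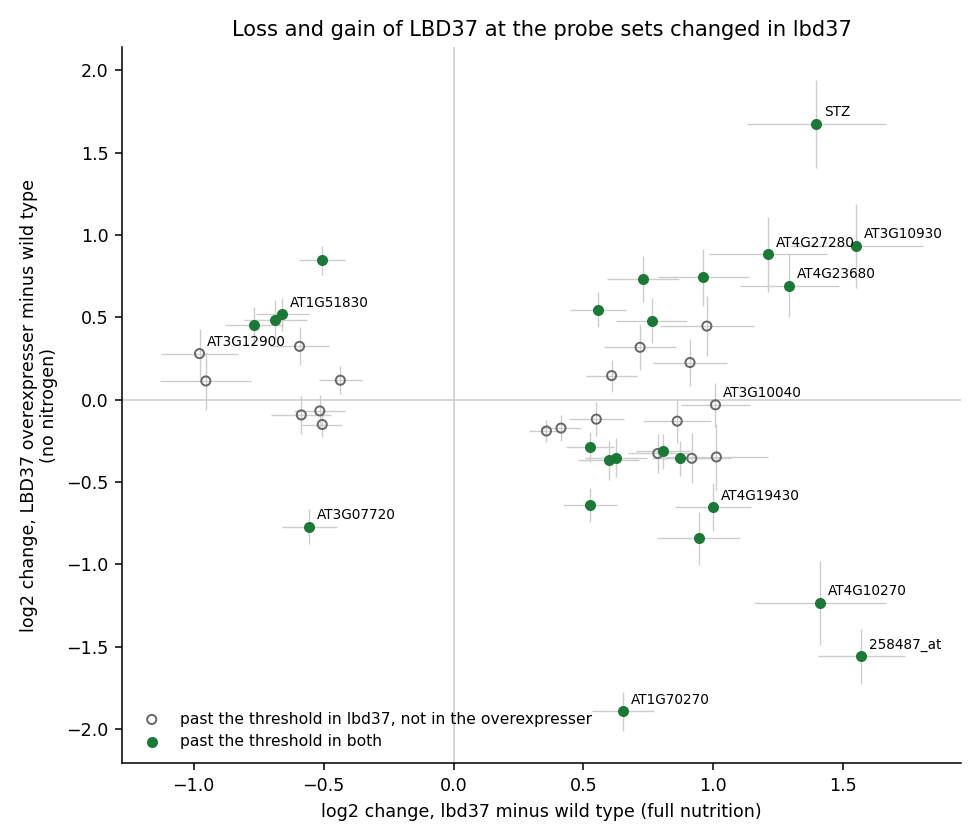
Log2 change in lbd37 (x axis, full nutrition) against log2 change in the LBD37 overexpresser (y axis, no nitrogen) for the 43 probe sets past the threshold in lbd37, each against its own wild type, with SE bars. Of the 24 green points, past the threshold in both, 15 (6 with 1 listed gene) lie in the quadrants of opposite sign, such as AT4G10270 and 258487_at, and 9 (8 with 1 listed gene) in the quadrants of like sign, such as STZ.

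Nitrogen depletion of wild type gave a scale for these changes, although it uses the same wild-type arrays in full nutrition. Depletion moved 11412 probe sets past the threshold (50.2%). STZ was 1.52 higher in depleted than in replete wild type and 1.40 higher in lbd37. AT3G12900 was at -2.46 with depletion and at -0.98 in lbd37. HRA1 was at -0.42 with depletion and at 1.01 in lbd37. DFR was 2.20 higher with depletion and 0.30 higher in lbd37, the latter not past the threshold.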

How the data were processed

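Total RNA was hybridised to Affymetrix ATH1 arrays. The authors deposited log2 signals made by RMA, per the submitters' processing notes. No version of it is given in the sources used here. limma (3.58.1, R 4.3.3) was fitted to all 18 arrays with 6 group means, and p-values were adjusted by Benjamini-Hochberg over 22746 probe sets at a threshold of 0.05. SE are limma's moderated errors. The steps were tested on simulated data. The number of arrays limits the precision.

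Genes came from the platform's annotation and symbols from TAIR10.1: 13513 probe sets list 1 gene, 503 several and 8730 none, and 13436 matched a locus. Sequences were not used here.

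The members and the gene lists were chosen with earlier results of these data known. Genes named were the 12 rises and up to 12 falls with the largest change that passed with 1 gene listed and no overlap of arrays, up to 6 passing list members, LBD genes and neighbours of LBD37, the 3 largest unnamed rises and falls, and the 6 largest in each direction against lbd38 and, for loss and gain, of like and of opposite effect. List members that did not pass were named after their values were seen. Alternatives were other normalizations, filters, fits and omitted arrays.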

Additional observations from a re-analysis of the deposited data

Results flagged for a closer look

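At 7 genes called in lbd37, the direct test between the mutants also passed (limma, adjusted over all probe sets). It uses the same lbd37 arrays by which these genes were chosen, which favours a pass. In lbd37 minus lbd38 on the log2 scale, AT2G36690 differed by 1.56, AT4G23680 by 1.34, AT3G10040 (HRA1) by 0.92, AT4G19430 by 0.88 and AT5G51390 by 0.82, all higher in lbd37. AT1G51830 differed by -0.76 and AT1G74770 by -0.52, both lower in lbd37.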

How the results depend on the processing

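The count of 43 probe sets in lbd37 was 68 with the 6 arrays fitted alone (28 of the 43 among them), 76 with array weights and 77 without replicate 3 of the LBD37 overexpresser, a setting chosen after seeing the data. It was 25 over probe sets with 1 gene, 13 at an adjusted p under 0.01 and 8 at 2-fold. With 1 array left out it ran from 11 to 50, being 11, 18 and 15 without mutant replicates 1, 2 and 3 and 17, 21 and 50 without wild-type replicates 1, 2 and 3. The mutant leave-outs kept 11, 13 and 15 of the 43, and the wild-type leave-outs kept 15, 18 and 28. All 43 kept their sign in the 6 leave-outs, and 6 passed in each of them, 8 in none. The 591 probe sets between the mutants became 1239, 1882 and 924 under the first 3 settings, 272, 241 and 71 under the next 3, and 292 to 388 with 1 array left out. The 2222 probe sets in the difference of loss and gain became 1121, 1026 and 498 by gene, stricter p and fold. Same-numbered arrays of wild type and lbd37 deviated with correlations of -0.06, 0.02 and -0.02. For lbd37 and lbd38 these were 0.05, 0.18 and 0.01. For the overexpresser and its wild type without nitrogen they were 0.05, 0.09 and 0.19. Whether same-numbered arrays shared a batch was not tested. The fit with the replicate block called 41, 638 and 2336 in the 3 comparisons, with AT4G27280 at a limma adjusted p of 0.0533. The median of the stress list was 0.75 without the 40% dimmest probe sets, of the jasmonate list 0.38 (0.17 without the 20% dimmest), of the plastid photosystem list 0.19 and of the cold, drought and abscisic acid list -0.20. With 1 array left out the cold, drought and abscisic acid median ran from -0.063 to 0.12 and the iron list from -0.57 to -0.37. A stricter p or fold lowers a count by construction. For the other settings the cause was not tested. Of the 18 named genes under all settings, 176 of 245 results passed, 69 did not and none reversed.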
